A study of Mus musculus with 6 samples.

Results

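Expression of 10 genes that report and restrain signalling through the kinase ERK was compared between Dicer null and Dicer heterozygous mouse sarcoma cells. The genes were taken by symbol: the phosphatases Dusp4, Dusp5 and Dusp6, the Sprouty genes Spry1, Spry2 and Spry4, their relatives Spred1 and Spred2, and the transcription factors Etv4 and Etv5. They are 10 of the 18193 genes named on the arrays and had 28 of the 45037 probe sets, each annotated to 1 gene only. The arrays were 3 of a sarcoma cell line with no functional Dicer (Dicer null) and 3 of a sarcoma cell line with 1 functional copy (Dicer heterozygous). All cells were of strain C57BL6/J, were kept in DMEM with 10% FBS, penicillin/streptomycin and L-glutamine, and were harvested at confluence. The series' design speaks of 3 lines per genotype while the titles speak of replicates, and the labels name neither the tumour's origin nor the deleted part of the gene. Whether the 3 samples of a genotype are separate lines or replicates of one line is thus not settled by the labels, and p-values here reflect how far these samples spread, which may be technical.

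Growth factors bind receptor tyrosine kinases, which switch on Ras, and Ras starts the kinase chain that ends at ERK. Active ERK induces genes whose products act back on the chain, so that their transcripts serve as readouts of ERK activity. Dusp proteins remove the activating phosphates from ERK itself, Sprouty and Spred proteins act further up, at the level of receptors, Ras and Raf, and Etv4 and Etv5 are ETS transcription factors of the PEA3 group that carry the output to other genes. Dicer is the nuclease that releases mature microRNAs from their hairpin precursors. The series title names one microRNA family, let-7. Spry1 has been described in mouse heart as a target of miR-21 and Spred1 in mouse blood vessels as a target of miR-126. The mature sequences of these microRNAs are shown because they are products that Dicer makes. Capitals mark the seed, bases 2 to 8, and the sequences are those of RefSeq for GRCm38.p6. The arrays measured messenger RNA and not these microRNAs.
mmu-let-7a-5p: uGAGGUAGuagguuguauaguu
mmu-miR-21a-5p: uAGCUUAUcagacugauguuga
mmu-miR-126a-3p: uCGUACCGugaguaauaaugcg

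The 250 bases before the annotated start are shown for 3 genes whose null values were all higher than the heterozygous ones (Spry1, Spry2 and Spred2) and for 1 gene whose groups overlapped (Dusp5), from RefSeq for GRCm38.p6. Capitals mark matches, on either strand, to the GC box (GGGCGG), the ETS core (CGGAAG) or the SRF CArG box.
Spry1, chr3:37639697-37639946, plus strand: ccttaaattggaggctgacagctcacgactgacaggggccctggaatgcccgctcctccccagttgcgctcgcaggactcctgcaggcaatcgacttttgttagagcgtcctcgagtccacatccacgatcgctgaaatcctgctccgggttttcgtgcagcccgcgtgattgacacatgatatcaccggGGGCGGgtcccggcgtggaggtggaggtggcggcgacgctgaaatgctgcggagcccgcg
Spry2, chr14:105896820-105897069, minus strand: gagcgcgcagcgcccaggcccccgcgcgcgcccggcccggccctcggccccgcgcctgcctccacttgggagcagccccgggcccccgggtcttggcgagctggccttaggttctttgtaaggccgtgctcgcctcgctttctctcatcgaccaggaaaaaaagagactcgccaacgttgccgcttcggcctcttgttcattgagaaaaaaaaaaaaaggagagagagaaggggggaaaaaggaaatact
Spred2, chr11:19924192-19924441, plus strand: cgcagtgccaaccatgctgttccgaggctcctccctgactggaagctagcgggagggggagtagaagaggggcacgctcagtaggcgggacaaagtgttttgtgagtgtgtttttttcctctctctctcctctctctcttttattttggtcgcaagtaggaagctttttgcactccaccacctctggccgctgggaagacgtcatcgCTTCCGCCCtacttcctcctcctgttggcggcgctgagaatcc
Dusp5, chr19:53528895-53529144, plus strand: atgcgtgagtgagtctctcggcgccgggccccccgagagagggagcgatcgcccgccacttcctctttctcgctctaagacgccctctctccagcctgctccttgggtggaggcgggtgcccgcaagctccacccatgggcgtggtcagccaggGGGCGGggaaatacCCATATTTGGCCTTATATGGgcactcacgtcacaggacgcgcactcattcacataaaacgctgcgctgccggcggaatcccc

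RefSeq promoter windows were matched for 7 of the 10 genes, 8 windows in all because Etv5 has 2 starts. Dusp4, Spry4 and Etv4 were not matched. The ETS core was found in 3 of the 8 windows, those of Dusp6, Spred1 and Spred2, and in 13.6% of all 32851 windows of the same length. The GC box was found in 5 of the 8 windows and in 32.7% of all. The SRF CArG box was found in 1 window, that of Dusp5, which holds 2 adjoining matches, 82 and 72 bases before the start. It occurred in 1.47% of all windows. In Spred2 the ETS core and the GC box overlap. The longer ETS site (CCGGAAGT, which contains the core), the AP-1 site (TGANTCA) and the CRE (TGACGTCA) were found in none of the 8 windows, and in 2.88%, 6.75% and 1.55% of all. These matches describe letters in a window and do not show binding.

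Values are log2 GCRMA values, on which a difference of 1 is a 2-fold difference. Vim, the mesenchymal filament protein, was bright on every array (13.71 to 13.84), and 7 of 8 mesenchymal markers had a mean of at least 3. The other, Thy1, did not, and was at 4.29 in heterozygous replicate 1, against 1.45 to 1.77 on the other 5 arrays. Below a mean of 3 lay all 4 endothelial markers (1.70 to 3.31), 3 of the 4 leukocyte markers with a probe set, Ptprc (1.55 to 1.62) among them, and 4 of 5 muscle markers, Myod1 (2.24 to 2.87) among them. Heterozygous replicate 1 stood apart in some markers of several cell types, but not in others of the same lists. The keratin Krt18 was at 9.02 there, against 2.0 to 2.68 on the other 5 arrays. Krt19 was at 8.92 there and at 8.50 in null replicate 1. Epcam (3.55) and Krt8 (2.96) were lower there than in null replicate 2 (5.21 and 3.66), and Cdh1 (3.20) was highest there. The macrophage gene Cd68, the leukocyte marker that met the minimum, was at 7.13 there, against 4.43 to 5.84. The embryonic myosin Myh3, the muscle marker that met it, was at 4.27 there, against 2.41 to 3.13. Krt18 and Myh3 met the minimum only through heterozygous replicate 1. Among the leukocyte and muscle markers below the minimum, Itgam (1.31) and Ckm (1.90) were lowest on that array, while Des (3.57) and Myog (2.19) were highest. The summed level of 5 epithelial markers, as log2, was 6.82 to 8.60 in null arrays and 5.56 to 10.01 in heterozygous arrays. Heterozygous replicate 3 stood apart in proliferation genes, where the median deviation from each gene's mean over 11 genes was -0.99, against -0.11 to 0.65 on the other arrays. In bulk samples, fewer cells of a type and less RNA per cell cannot be told apart. Dicer1 itself did not pass the test (log2 differences 0.14 and 0.27 in its probe sets, limma adjusted p = 0.693 and 0.573), and a probe set outside the deleted part checks nothing.

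Of the 28 probe sets, 23 had a mean of at least 3 over the 6 arrays and were tested. The remaining 5, of Spry2, Spred1, Spred2 (a pair) and Etv4, lay between 1.66 and 3.03. With limma, adjusting by Benjamini-Hochberg over the 24385 probe sets tested, 0 of the 23 changed in either direction, where 3.1% of all tested probe sets did. At an unadjusted p under 0.05 there were 9, beside 5660 of all 24385 tested probe sets in either direction. All 9 were higher in null arrays, where 12.2% of all tested probe sets were. They include the dimmest Spry4 probe set, which met the minimum mean only through its null values. By the brightest probe set, 4 of the 10 genes had such a p, beside 24.0% of all tested genes in either direction. The smallest adjusted p was 0.0714, in Spry4. On data simulated with 200 changed probe sets, the same test called 2.99% of 2-fold and 67.2% of 4-fold changes. An uncalled probe set is thus not shown to be unchanged. The simulation gave 124 calls, against 756 in the data, so its shares need not hold here. With limma's array weights 3 probe sets were called, all of Spry4, where 12.1% of all tested probe sets were. With ordinary t statistics 0 were called, but so were 0 of all 24385 tested probe sets, so that setting says nothing about the members.

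All 3 null arrays were higher than all 3 heterozygous arrays in 11 of the 23 probe sets, and lower in 0. Among all tested probe sets the shares were 16.3% and 14.6%. The 11 were the 6 of the Sprouty genes, 4 of Spred1 and 1 of Spred2, and they include the dimmest Spry4 probe set, which met the minimum mean only through its null values. Probe sets of 1 gene read the same gene on the same arrays and are not independent. Taking the brightest probe set for each gene, the median log2 difference over the 10 genes was 0.63, beside -0.01 over 11425 tested genes. It was 0.33 with array weights. In 5 of the 10 genes each null array was above each heterozygous one, which held for 14.9% of all tested genes. Of the 10 genes, 8 had a difference above 0, where 48.9% of all tested genes did, and Etv4 and Etv5 were the other 2.

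**Figure D1:**
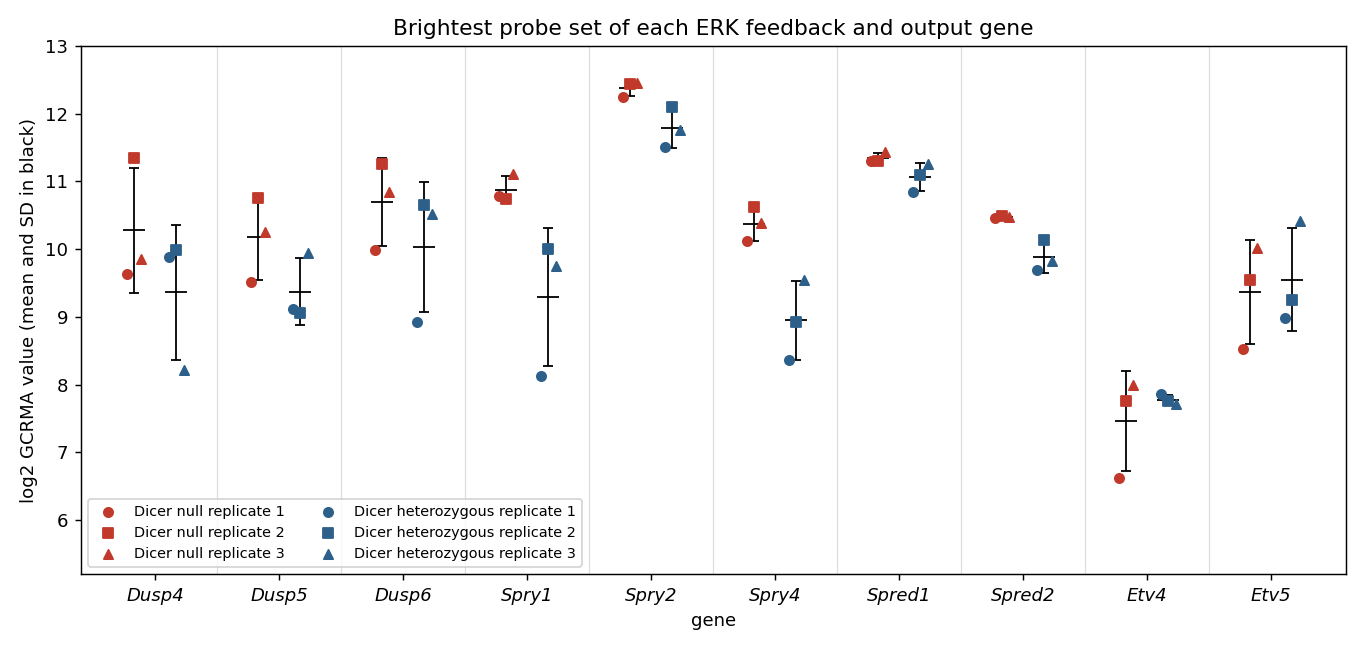
Log2 GCRMA values of the brightest probe set of each of the 10 genes (x axis), with null arrays in red to the left and heterozygous arrays in blue to the right. Marker shape gives the replicate number, and black bars give the mean ± SD of 3 arrays. In Spry1, Spry2, Spry4, Spred1 and Spred2 every red point lies above every blue point, while in the Dusp and Etv genes the groups overlap.

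The Sprouty genes had a median log2 difference of 1.41 over their 6 tested probe sets, none of which passed the test. The 6 include the dimmest Spry4 probe set, which met the minimum mean only through its null values. The median was 0.80 for the Dusp, 0.44 for the Spred and 0.04 for the Etv probe sets, and the differences between families were not tested. Sprouty proteins are membrane-associated inhibitors that growth factors induce. Spry4 read 10.12, 10.62 and 10.39 in null arrays, against 8.37, 8.93 and 9.54 in heterozygous arrays, by its brightest probe set (1445669_at). The lowest null value was thus above the highest heterozygous value. The group means were 10.38 ± 0.25 and 8.95 ± 0.59 (SD, n = 3 each), a log2 difference of 1.43 (SE 0.33, 95% interval 0.64 to 2.22, limma adjusted p = 0.0714).

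The other Spry4 probe sets had the same direction. The one with the widest difference (1440867_at) read 9.39, 10.33 and 10.33 in null arrays, against 6.41, 7.75 and 8.55 in heterozygous arrays. That is a log2 difference of 2.45 (SE 0.58, limma adjusted p = 0.0761), or 5.45-fold. The probe set 1422021_at read 8.02, 8.84 and 8.91 in null arrays, against 7.07, 6.80 and 7.75 in heterozygous arrays, with a log2 difference of 1.38 (SE 0.35, limma adjusted p = 0.0889). The dimmest (1422020_at) read 3.09, 3.27 and 3.67 in null arrays, against 2.73, 2.64 and 2.74 in heterozygous arrays. Its log2 difference of 0.64 (limma adjusted p = 0.129) starts from values below the minimum. Heterozygous replicate 3 was the highest heterozygous array in all 4 probe sets. Without it, 2 of them passed, 1445669_at with a difference of 1.73 (limma adjusted p = 0.0375) and 1440867_at with 2.94 (limma adjusted p = 0.0466). Without heterozygous replicate 1, 1440867_at differed by 1.87 (limma adjusted p = 0.0863).

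Spry1 read 10.79, 10.74 and 11.11 in null arrays, against 8.12, 10.00 and 9.75 in heterozygous arrays. The groups did not overlap, and heterozygous replicate 1 was far below the other arrays. The means were 10.88 ± 0.20 and 9.29 ± 1.02 (SD, n = 3 each), a log2 difference of 1.59 (SE 0.50, 95% interval 0.38 to 2.80, limma adjusted p = 0.134), or 3.01-fold. Without heterozygous replicate 1 the fold was 2.01 (limma adjusted p = 0.0804).

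Spry2 was bright in both groups and read 12.24, 12.44 and 12.46 in null arrays, against 11.51, 12.10 and 11.76 in heterozygous arrays. The lowest null value, in replicate 1, was only a little above the highest heterozygous value, in replicate 2. This gave a log2 difference of 0.59 (SE 0.20, 95% interval 0.10 to 1.08, limma adjusted p = 0.159), or 1.51-fold. Its other probe set, below the minimum, read 2.64, 2.58 and 3.03 in null arrays and 2.26, 2.14 and 2.54 in heterozygous arrays.

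The probe sets of the Spred genes did not all point one way. Spred proteins bind Ras and bring the Ras inhibitor neurofibromin to the membrane. Spred2 read 10.46, 10.49 and 10.47 in null arrays, against 9.69, 10.13 and 9.82 in heterozygous arrays (1434403_at). The null arrays were nearly identical and all above the heterozygous ones. The log2 difference was 0.59 (SE 0.18, 95% interval 0.17 to 1.02, limma adjusted p = 0.118). Another Spred2 probe set (1436892_at) read 6.13, 6.59 and 7.69 in null arrays, against 4.22, 5.12 and 6.46 in heterozygous arrays. Here the groups overlapped, with a log2 difference of 1.54 (SE 0.65, limma adjusted p = 0.227). The remaining one, 1441802_at, differed by 0.26 (SE 0.25, limma adjusted p = 0.579).

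Spred1 read 11.30, 11.30 and 11.43 in null arrays, against 10.84, 11.10 and 11.26 in heterozygous arrays, by its brightest probe set (1423160_at). The separation was narrow, and the log2 difference was 0.28 (SE 0.17, 95% interval -0.15 to 0.70, limma adjusted p = 0.392). Over its 7 tested probe sets the differences ran from -0.78 to 0.84. The smallest adjusted p among them was 0.123, in 1428777_at, with 8.55, 8.32 and 8.84 in null arrays and 7.92, 8.03 and 7.89 in heterozygous arrays. The one negative difference was in 1445228_at, a dim probe set with 2.90, 3.24 and 4.48 in null arrays and 3.68, 3.85 and 5.43 in heterozygous arrays, whose groups overlapped.

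**Figure D2:**
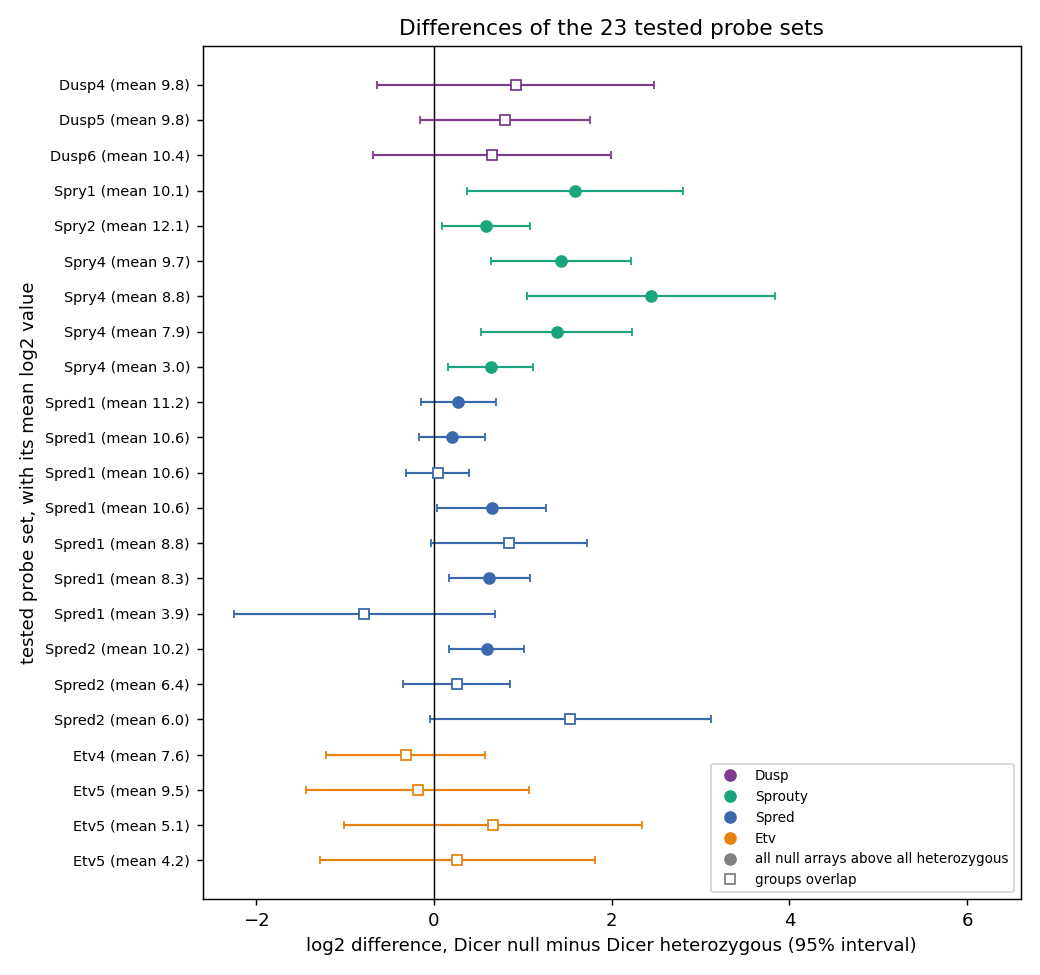
Log2 differences, null minus heterozygous, of the 23 tested probe sets with 95% intervals (x axis), 1 row per probe set labelled with its gene and mean log2 value. Filled circles mark probe sets in which each null array was above each heterozygous one. All 6 Sprouty intervals lie above 0, including that of the dimmest Spry4 probe set, which met the minimum mean only through its null values. The Dusp and Etv intervals include 0. These intervals are not adjusted for the number of probe sets tested.

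The 3 phosphatase genes had higher means in null arrays, but their groups overlapped. Dusp4 and Dusp5 act in the nucleus and Dusp6 in the cytoplasm. Dusp4 read 9.64, 11.34 and 9.86 in null arrays, against 9.89, 9.98 and 8.21 in heterozygous arrays. Null replicate 2 was the highest and heterozygous replicate 3 the lowest, and the other 4 arrays lay close together. The log2 difference was 0.92 (SE 0.64, 95% interval -0.64 to 2.48, limma adjusted p = 0.438). It was 0.34 without heterozygous replicate 3 and 0.39 without null replicate 2.

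Dusp5 read 9.51, 10.75 and 10.26 in null arrays, against 9.11, 9.06 and 9.95 in heterozygous arrays. Heterozygous replicate 3 lay above null replicate 1. Dusp5 differed by 0.80 on the log2 scale (SE 0.40, 95% interval -0.16 to 1.76, limma adjusted p = 0.282). Dusp6 read 9.98, 11.26 and 10.84 in null arrays, against 8.93, 10.65 and 10.52 in heterozygous arrays. Heterozygous replicate 1 was the lowest array, and the log2 difference of 0.66 (SE 0.55, 95% interval -0.68 to 2.0, limma adjusted p = 0.519) was 0.11 without it.

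Etv4 and Etv5 had slightly lower means in null arrays by their brightest probe sets. Etv4 read 6.62, 7.76 and 8.0 in null arrays, against 7.86, 7.76 and 7.71 in heterozygous arrays. The heterozygous values lay within the range of the null ones. Etv4 had a log2 difference of -0.32 (SE 0.37, 95% interval -1.21 to 0.58, limma adjusted p = 0.651), which was 0.10 without null replicate 1.

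Etv5 read 8.52, 9.55 and 10.02 in null arrays, against 8.98, 9.25 and 10.41 in heterozygous arrays, and the groups overlapped through most of their range. The log2 difference was -0.18 (SE 0.52, 95% interval -1.44 to 1.07, limma adjusted p = 0.863). It was 0.24 without null replicate 1 and 0.25 without heterozygous replicate 3. The 2 dimmer Etv5 probe sets differed by 0.67 and 0.26 (limma adjusted p = 0.608 and 0.840). These intervals leave room for a 2-fold difference of Etv5 in either direction.

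The arrays of a group did not move as one across the genes. Heterozygous replicate 1 was the lowest of the 6 arrays for 6 genes, namely Dusp6, the 3 Sprouty genes and both Spred genes. It was also the array with the high Krt18, Cd68 and Myh3. Null replicate 1 was the lowest for Etv4 and Etv5. Null replicate 2, which had the highest proliferation level of the 6 (0.65), was the highest for 5 genes, among them the 3 Dusp genes. The proliferation list's summed level, as log2, was 14.73 to 14.97 in null arrays and 13.65 to 14.51 in heterozygous arrays. The part of these markers in the differences was not tested, beyond the values given without 1 array.

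**Figure D3:**
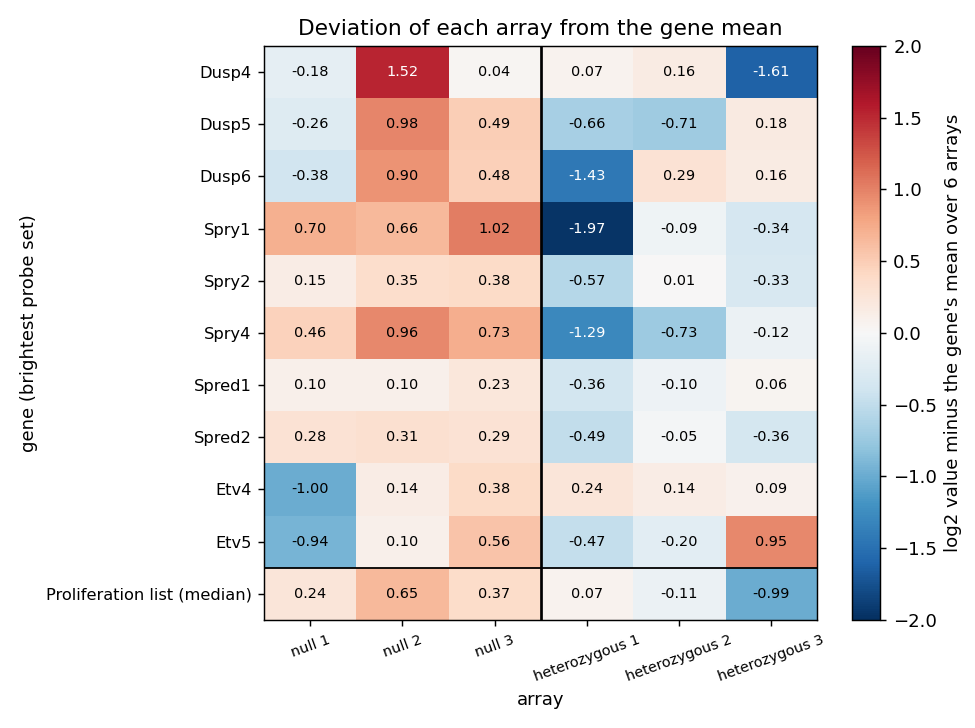
Deviation of each array's log2 value from the gene's mean over the 6 arrays, for the brightest probe set of each of the 10 genes (rows), with null arrays in the left 3 columns and heterozygous arrays in the right 3. The bottom row is the median deviation of 11 proliferation genes. Heterozygous replicate 1 is lowest for the Sprouty and Spred genes, and heterozygous replicate 3 is lowest for the proliferation list (-0.99) and Dusp4 (-1.61) but highest for Etv5 (0.95).

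Across the 6 arrays, which share the group difference, Pearson's r between Spry2 and Spred2 was 0.97, between Spry1 and Spry2 0.94, and between Spry1 and Spry4 0.90. Dusp4 and Spred1 gave 0.01, and Etv4 and Spry1 -0.27. These values describe 6 points and carry no test. Spry1 had the largest difference of the 10 genes by the brightest probe set. Of 10974 other named genes, those with values most like it over the 6 arrays were Phf23, Glis3 and Arhgap5, each with r = 0.99. None of these 3 passed the test (log2 differences 0.38, 0.35 and 0.30, limma adjusted p = 0.317, 0.283 and 0.315).

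Of 11 further genes, the other tested Dusp, Sprouty and Spred genes of the list and the related inhibitor Il17rd, 1 rose and 0 fell, beside 1.45% and 2.0% of all tested genes. The gene that rose was Dusp2, a nuclear phosphatase of ERK. Dusp2 read 6.28, 8.91 and 8.58 in null arrays, against 3.49, 3.32 and 3.20 in heterozygous arrays. The heterozygous values lay near the median of all probe sets on an array (3.32 to 3.43), where values depend on the background model, so no fold is given. Null replicate 1 was well below the other null arrays. The log2 difference of Dusp2 was 4.59 (SE 0.68, limma adjusted p = 0.0310) and was 5.41 without null replicate 1 (limma adjusted p = 0.00975). The call was lost without any other single array (limma adjusted p = 0.0517 to 0.114) and with the replicate number as a block (0.0768). It was also lost with ordinary t statistics (0.133), with which no tested probe set was called.

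The median log2 difference of these 11 genes was 0.67, and in 6 of them each null array was above each heterozygous one, which held for 14.9% of all tested genes. Besides Dusp2 they were Dusp7, Dusp9, Dusp14, Dusp16 and Spry3, of which Spry3 met the minimum mean only through its null values. Dusp9, a cytoplasmic phosphatase of ERK, read 9.42, 10.96 and 9.95 in null arrays, against 8.91, 8.82 and 7.08 in heterozygous arrays (log2 difference 1.84, SE 0.61, limma adjusted p = 0.148). Spry3, the remaining Sprouty gene, read 4.07, 4.0 and 5.29 in null arrays, against 2.49, 2.95 and 3.38 in heterozygous arrays (limma adjusted p = 0.103), a heterozygous mean of 2.94.

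**Figure D4:**
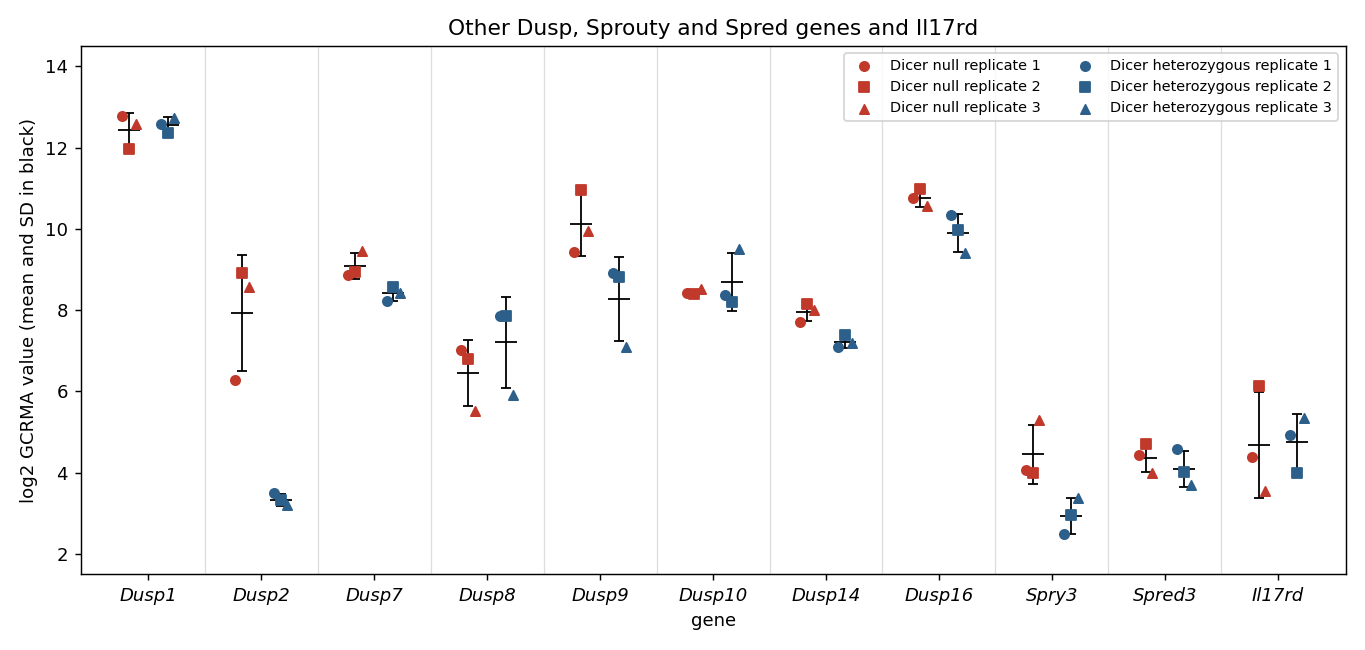
Log2 GCRMA values of 11 further genes, Dusp, Sprouty and Spred genes and Il17rd (x axis), with null arrays in red to the left and heterozygous arrays in blue to the right, marker shape giving the replicate number and black bars the mean ± SD of 3 arrays. Dusp2 lies between 6.28 and 8.91 in null arrays and between 3.20 and 3.49 in heterozygous arrays, while Dusp1, Dusp8, Dusp10, Spred3 and Il17rd overlap.

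None of the genes upstream of ERK was called by its brightest probe set. Of 15 tested genes of the cascade from adaptors through Ras to the MEK kinases, 0 rose and 0 fell in limma, with a median log2 difference of 0.12. At an unadjusted p under 0.05 there were 4, where 24.0% of all tested genes were, and with array weights 2 were called, where 13.1% of all tested genes were. The nearest was Sos2, an exchange factor that loads Ras with GTP, at 10.73, 11.00 and 11.02 in null arrays, against 9.82, 10.04 and 10.12 in heterozygous arrays. Sos2 differed by 0.92 on the log2 scale (SE 0.17, limma adjusted p = 0.0512). It passed with a minimum mean of 4 (0.0484), with no minimum (0.0481) and with trend and robust moderation (0.0324). So it did with values below 3 set to 3 (0.0494) and with array weights (0.0186). Sos2 did not pass with renormalization (limma adjusted p = 0.0524), centring (0.0534) or the replicate block (0.0866). Nor did it pass without any single array (0.0579 to 0.173) or with ordinary t statistics (0.114). Of 7 tested receptor genes 0 passed in limma, with a median of -0.39, while 2 had an unadjusted p under 0.05 and 1 was called with array weights, beside the same 24.0% and 13.1%. Pdgfra, a receptor for platelet-derived growth factor, was nearest, at 10.76, 9.74 and 10.40 in null arrays, against 11.44, 12.08 and 12.26 in heterozygous arrays (log2 difference -1.63, SE 0.34, limma adjusted p = 0.0593). Its 2 dimmer probe sets differed by -2.39 and -2.57 (limma adjusted p = 0.0671 and 0.0480), so that 1 of the 3 passed. That call was lost without any single array (limma adjusted p = 0.0616 to 0.146), with no minimum (0.0678), with the replicate block (0.0747) and with ordinary t statistics (0.156).

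Early genes that ERK also induces are a further readout of the pathway. The list used for them also held Elk1 and Ccnd1, which need not be early genes of that kind. Of 16 tested, 0 rose and 0 fell in limma, 1 had an unadjusted p under 0.05 (24.0% of all tested genes), and 1 was called with array weights (13.1%). The median log2 difference was -0.13, with 10 of the 16 lower in null arrays, as were 5840 of the 11425 tested genes. Each null array was above each heterozygous one in 2 of the 16, beside 14.9% of all tested genes. Each was below in 1 of the 16, beside 1970 of the 11425 tested genes. Egr1, a zinc finger factor, read 12.74, 12.57 and 12.79 in null arrays, against 12.67, 12.90 and 12.89 in heterozygous arrays. Fos read 12.39, 11.86 and 11.81 in null arrays, against 12.07, 12.55 and 12.78 in heterozygous arrays, and in both genes the groups overlapped. The nearest to the threshold was Ccnd1, the cyclin that carries growth signals to the cell cycle. It read 12.02, 12.26 and 12.27 in null arrays, against 11.61, 11.59 and 11.33 in heterozygous arrays (log2 difference 0.67, SE 0.17, limma adjusted p = 0.0894). The dimmer Ccnd1 probe sets differed by 1.11, with overlapping groups, and by 1.40 (limma adjusted p = 0.213 and 0.217). No test was made of the difference between these lists. In the proliferation list 0 of 11 tested genes passed in limma, 5 had an unadjusted p under 0.05 (24.0% of all tested genes), and 1 was called with array weights (13.1%). All 11 had higher means in null arrays, where 48.9% of all tested genes did, and Cdc6, which licenses replication, was nearest (log2 difference 1.30, SE 0.26, limma adjusted p = 0.0570).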

How the data were processed

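Affymetrix 3′ arrays measured messenger RNA in 3 Dicer null and 3 Dicer heterozygous samples. The values deposited by the authors run from 0.40 to 14.18 and were taken to be log2, the scale of GCRMA output. Per the submitters' processing notes, GCRMA 2.20.0 in R 2.11.1 made them, correcting background by probe sequence and normalizing quantiles between arrays. How GCRMA was set is not given in the sources used here. Array medians lay between 3.32 and 3.43. Low values depend on the background model, and the number of arrays limits the precision.

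Probe sets were named through GEO's platform annotation: 34945 had 1 gene symbol, 932 several and 9160 none. Entrez IDs matched GRCm38.p6 for 34741 and changed 0 symbols. Limma 3.58.1 in R 4.3.3 (lmFit and eBayes, two-sided, no block) was fitted to all probe sets with a mean of at least 3, with Benjamini-Hochberg adjustment over all of them at 0.05, and was tested on simulated data. A gene was represented by its brightest tested probe set. The 10 genes and all lists were chosen with earlier results of these data known. Named were the 10 genes, up to 4 called genes of each list or else the one with the smallest p, and the 3 genes most like Spry1. Dusp9, Spry3, Egr1, Fos and the cell markers were named after their values were seen. Deviations from the group means correlated between arrays of 1 number at -0.06, 0.11 and 0.24, so the numbers were not taken to pair the samples. Alternatives were other minimums, other moderation, renormalization, centring, ordinary t, array weights, a block and left-out arrays. Figures used matplotlib 3.10.9.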

Additional observations from a re-analysis of the deposited data

How the results depend on the processing

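All settings were planned, and no cause was tested. The count of 0 member probe sets called held with other minimums, other moderation, renormalization, centring, a floor at 3, ordinary t and the replicate block. It was 3 with array weights and 0 to 2 without 1 array. The members' median of 0.63 was 0.33 with array weights, which gave heterozygous replicate 2 a weight of 2.89 and replicate 3 one of 0.34, and was 0.45 to 0.84 without 1 array. Of all tested probe sets, 756 changed in limma, but 0 with ordinary t, 2949 with array weights, 116 with the replicate block and 45 to 857 without 1 array. Under the block 14 of 23 member probe sets had an unadjusted p under 0.05, beside 24.6% of all tested probe sets, and 3 of the 6 arrays were most like the array of their own number. The sign turned for Etv4 (0.10) and Etv5 (0.24) without null replicate 1, and for Etv5 without heterozygous replicate 3 (0.25) or as the mean of its probe sets (0.25). Without 1 array Etv4 ranged from -0.59 to 0.10 and Etv5 from -0.51 to 0.25. Values near 3 depend on the background model.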
